A study of Drosophila melanogaster with 2 samples.

Results

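Deep intronic sites bound by a Ptx1 fusion protein, found by chromatin immunoprecipitation and sequencing of Drosophila melanogaster embryos, were chosen by position alone. A site was a peak of the conservative list, thresholded on the irreproducible discovery rate (IDR), with its summit in an intron of a protein-coding gene, in no annotated exon, and more than 5000 bp from the nearest transcription start of any gene. Starts of pseudogenes and transposable elements were left out. On arms 2L, 2R, 3L and 3R, 691 of 5402 peaks met this rule (12.8%), and the whole list held 6840. The 2 samples were biological replicates of 1 group, embryos aged 0 to 24 h of a strain with a Ptx1-eGFP insertion targeting Ptx1. By the labels an antibody against GFP was used, while the antibody field names Ptx1. The series has no contrast between conditions. Control samples were not analysed here, and the depth of reads is unknown. Whole embryos mix all cell types, so a peak cannot be placed in a tissue. Each peak has a score with no stated unit, used here mainly for ranks within a list. Scores of the 2 replicates are also set side by side, though their lists need not share a scale. Whether the replicates came from separate cages or collections is not stated beyond the word biological, so their spread may be partly technical.

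Ptx1 is a paired-like homeodomain transcription factor of the bicoid type, related to the Pitx proteins of vertebrates. Homeodomains of this type prefer the core TAATCC. In Drosophila, genes that pattern the embryo often have long introns, and such introns are a known location of enhancers, the elements that switch a gene on in particular cells at a distance from its promoter.

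On average the summits of the sites were rich in A and T, as were those of other peaks. As examples, 4 of the 7 sites of highest score and the highest site of 4 further hosts with many sites are printed. The windows reach 50 bp to either side of the summit. They are from RefSeq's release 6 assembly (dm6), plus strand, 5′ to 3′, and capitals mark runs of 6 or more A or T.

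CG32486 (chr3L:3060750-3060850): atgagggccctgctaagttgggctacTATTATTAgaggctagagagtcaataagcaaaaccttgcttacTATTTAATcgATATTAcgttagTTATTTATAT
Gug (chr3L:8458270-8458370): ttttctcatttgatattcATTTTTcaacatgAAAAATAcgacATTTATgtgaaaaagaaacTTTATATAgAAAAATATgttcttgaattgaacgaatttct
JIL-1 (chr3L:11084720-11084820): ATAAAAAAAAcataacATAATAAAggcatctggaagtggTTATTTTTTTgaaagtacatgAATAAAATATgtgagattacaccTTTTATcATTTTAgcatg
rdx (chr3R:14012670-14012770): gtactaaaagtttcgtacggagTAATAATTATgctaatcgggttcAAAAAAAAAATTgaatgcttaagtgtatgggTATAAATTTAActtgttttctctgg
Snoo (chr2L:7925516-7925616): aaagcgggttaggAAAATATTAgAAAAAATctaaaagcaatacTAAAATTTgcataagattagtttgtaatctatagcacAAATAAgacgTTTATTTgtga
hth (chr3R:10597708-10597808): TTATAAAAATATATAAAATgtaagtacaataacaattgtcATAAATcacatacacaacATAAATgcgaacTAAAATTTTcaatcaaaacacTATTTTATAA
eIF5B (chr3L:3432798-3432898): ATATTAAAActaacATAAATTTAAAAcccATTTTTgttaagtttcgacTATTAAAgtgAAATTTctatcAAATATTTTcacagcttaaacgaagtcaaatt
ftz-f1 (chr3L:18784712-18784812): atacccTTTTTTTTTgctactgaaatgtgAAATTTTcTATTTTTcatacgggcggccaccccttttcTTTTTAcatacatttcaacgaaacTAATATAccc

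The GC content of these windows ran from 18.8% at the hth site to 34.7% at the CG32486 site. They were not drawn at random, and most had a lower GC content than the mean over all sites.

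Over all 691 sites the summit window had a mean GC content of 32.6% ± 9.18 (SD over sites). The 195464 windows of the same length that tile all eligible intron sequence averaged 40.5% ± 9.13, where eligible means intronic, in no exon and more than 5000 bp from a start. A and T runs of 6 or more made up 27.04% of the bases in summit windows and 16.98% in eligible intron windows. In the other peaks it was 27.39%. At least 1 such run was in 640 of the 691 summit windows (92.6%), against 92.9% of the windows of other peaks and 83.9% of the eligible intron windows. The summit GC content of single sites ran from 11.9% to 69.3%. GC content was 45.5% on average in windows centred 200 bp to either side, 42.3% at 500 bp and 40.5% at 1000 bp, so a trough lay at the summit between shoulders of higher GC content. In 528 of 691 sites (76.4%) the summit window had lower GC content than both windows 200 bp away. The share was 65.1% over all 5402 peaks of these arms and 63.5% over the 4711 other peaks. It was 71.9% in intronic peaks 1000 to 5000 bp from a start and 77.9% in intergenic peaks over 5000 bp from one, so the trough was not particular to the sites. Against windows 500 bp away the share was 68.9% in the sites and 66.4% in the other peaks, and at 1000 bp it was 62.5% and 61.4%. No test was run on these shares, which were chosen after the profile was seen.

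**Figure D1:**
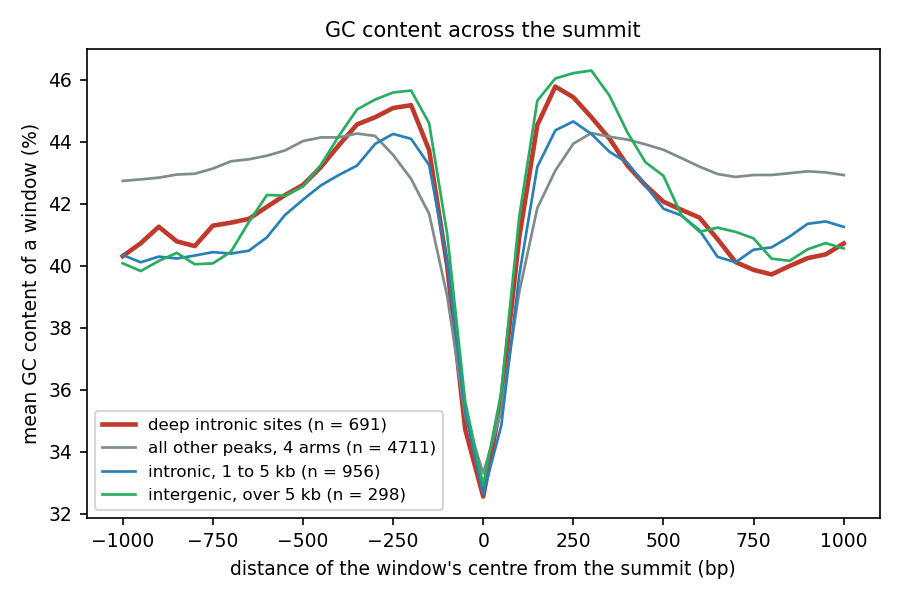
Mean GC content (%) of windows reaching 50 bp to either side of their centre, against the distance of their centre from the summit (bp), for the deep intronic sites and 3 classes of other peaks on the same arms. The 4 lines meet at 32.6% to 33.3% at the summit, and the line of the sites stands at 45.2% and 45.8% 200 bp to the left and right of it.

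No difference in summit GC content between the sites and other peaks was detected. GC content below the median of all peaks was found in 356 of 691 sites (51.5%), against a background of 49.1% of all peaks on these arms. The odds ratio was 1.12 (95% interval 0.949 to 1.31) against the 4711 other peaks, 1.03 (0.841 to 1.26) against the 956 intronic peaks 1000 to 5000 bp from a start, and 1.03 (0.781 to 1.37) against the 298 intergenic peaks over 5000 bp from a start. The exact adjusted p was 0.537, 0.835 and 0.835 in the same order (Fisher's exact test, two-sided, Benjamini-Hochberg over these 3 comparisons).

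TAATCC, the core that the Ptx1 class prefers, was not detectably more or less frequent at the sites than at other peaks. It was in 22 of 691 windows on either strand (3.18%), against a background of 3.70% of all peaks on these arms, 3.78% of the other peaks and 3.17% of all eligible intron windows. Against other peaks the odds ratio was 0.837 (95% interval 0.508 to 1.32, Fisher's exact test, exact adjusted p = 0.689 over 18 motifs). Against the window 500 bp to the lower-coordinate side, which held it in 2.60%, the odds ratio of discordant windows was 1.22 (exact McNemar test, exact adjusted p = 1). The letters written backwards, CCTAAT, were in 3.91% of the sites. To show where the core stands, 4 of the high-scoring sites with TAATCC are printed. They lay in Snoo, in ush, which encodes a cofactor of GATA factors, in Hs6st, a heparan sulfate sulfotransferase gene, and in pyd, which encodes a junction protein. The capitals mark TAATCC, or its reverse complement in Hs6st, and the runs of A and T around it are visible in lower case.

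Snoo, score 355 (chr2L:7916462-7916562): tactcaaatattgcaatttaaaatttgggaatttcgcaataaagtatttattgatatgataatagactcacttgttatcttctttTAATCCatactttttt
ush, score 285 (chr2L:512182-512282): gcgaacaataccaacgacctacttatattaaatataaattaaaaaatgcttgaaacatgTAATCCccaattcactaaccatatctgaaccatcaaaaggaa
Hs6st, score 207 (chr3R:19998571-19998671): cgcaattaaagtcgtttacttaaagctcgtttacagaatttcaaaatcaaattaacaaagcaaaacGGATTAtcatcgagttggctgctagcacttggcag
pyd, score 173 (chr3R:8896853-8896953): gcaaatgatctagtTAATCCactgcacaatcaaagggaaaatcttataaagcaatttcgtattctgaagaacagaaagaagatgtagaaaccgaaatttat

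The weaker core of the same type, TAAGCC, was in 38 of 691 windows (5.50%), against a background of 4.42% of all peaks on these arms. Its odds ratio was 1.31 against other peaks (95% interval 0.889 to 1.87, Fisher's exact test, exact adjusted p = 0.622) and 1.68 against flanks (exact McNemar test, exact adjusted p = 0.607). Of the 18 motifs 1 differed between sites and other peaks (5.56%), and 2 had an unadjusted p below 0.05. That motif was TATCGATA, the DNA replication-related element found in promoters of proliferation genes. It was in 1 of 691 sites (0.145%), against a background of 1.41% of all peaks and 75 of 4711 other peaks (1.59%), with an odds ratio of 0.0896 (95% interval 0.00224 to 0.517, Fisher's exact test, exact adjusted p = 0.0132). The single site lay in Dmtn with a score of 86.8. Eligible intron windows held TATCGATA in 0.186%. The rule leaves peaks near starts out of the sites, while the other peaks include them. The comparison therefore cannot separate a trait of the sites from their distance from promoters. In 4 alternatives against other peaks the call was lost. The odds ratio was 0 in replicate 2's own list, without replicate 1 (exact adjusted p = 0.0612), with 1 peak per run (exact adjusted p = 0.587) and beyond 10000 bp from a start (exact adjusted p = 0.134), and 0.183 in windows of 51 bp (exact adjusted p = 0.450). Beyond 10000 bp the 1 motif called was GATAAG, the core of GATA factors. Its odds ratio there is not given here. In the main comparison GATAAG was not called. It was in 3.91% of the sites and 5.90% of the other peaks (odds ratio 0.648, Fisher's exact test, exact adjusted p = 0.305). TATCGATA was not called against intronic peaks nearer to a start (odds ratio 1.38, Fisher's exact test, exact adjusted p = 1). Nor was it called against intergenic peaks over 5000 bp from a start (odds ratio 0.430). Against the flanks, 0 of 18 motifs differed (0.00%) by the exact McNemar test, and 1 had an unadjusted p below 0.05. A match of letters is a description and not a site of the factor.

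The sites were weaker than other peaks by score. Their scores ran from 2.13 to 1608 with a median of 112, against a median of 133 in the other peaks. Scores above the median of all peaks were found in 273 of 691 sites (39.5%, exact Clopper-Pearson 95% interval 35.8 to 43.3), against a background of 2701 of 5402 peaks. The share was 51.5% in the other peaks (odds ratio 0.614, 95% interval 0.520 to 0.725, Fisher's exact test, exact adjusted p = 1.20e-08) and 45.5% in intronic peaks nearer to a start (odds ratio 0.782, 0.638 to 0.959, exact adjusted p = 0.0234). The last difference missed the threshold in the other thresholded list (exact adjusted p = 0.0750) and in replicate 1's own list (exact adjusted p = 0.243). Intergenic peaks over 5000 bp from a start had 36.6% above the median, and no difference from the sites was detected (odds ratio 1.13, 0.848 to 1.52, exact adjusted p = 0.394). With the peaks of these arms in 4 equal groups from low to high score, sites made up 15.3%, 15.6%, 12.5% and 7.70% of the groups. In the whole list, of which the sites made up 10.1%, 3 sites ranked among the first 100 peaks and 17 among the first 500.

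Both replicates' own thresholded lists had a summit within 100 bp of 346 sites (50.1%, interval 46.3 to 53.9), against a background of 56.2% of all peaks on these arms and 57.1% of the other peaks (odds ratio 0.753, 95% interval 0.640 to 0.887, Fisher's exact test, exact adjusted p = 0.00168). Replicate 1's list alone held 86 sites, replicate 2's list alone held 71, and neither held 188. Against intronic peaks nearer to a start (51.99%) and intergenic peaks far from one (45.0%) no difference was detected, with odds ratios of 0.926 (0.758 to 1.13) and 1.23 (0.926 to 1.63) and exact adjusted p of 0.454 and 0.219. Support moved with score. From the lowest to the highest of the 4 score groups, 0.966%, 39.8%, 92.3% and 100% of the sites were in both replicates' lists, against 1.31%, 34.7%, 88.2% and 99.3% of the other peaks. How much of the difference in support goes with score was not tested. Peaks in runs are not independent units, so the p-values of these comparisons may be too small.

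**Figure D2:**
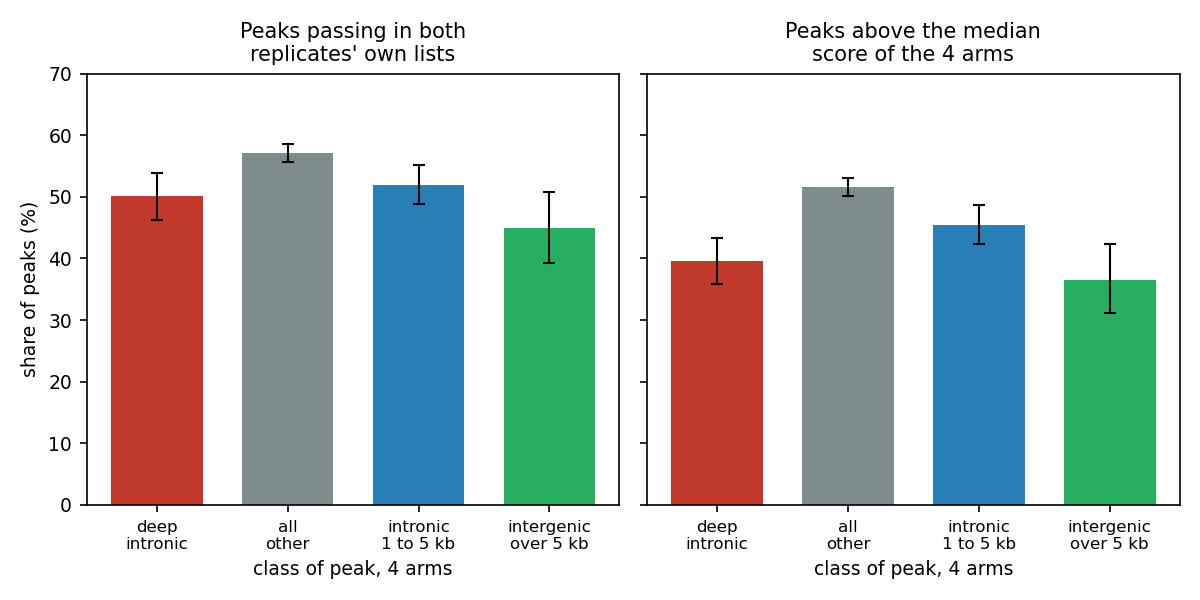
Share of peaks (%) with a thresholded summit within 100 bp in both replicates' own lists (left) and above the median score (right), for deep intronic sites and 3 classes of other peaks on the same arms, with exact 95% intervals as bars. The sites stand at 50.1% and 39.5%, below all other peaks at 57.1% and 51.5%.

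In the longer ranked lists, 642 sites had a peak summit within 100 bp in replicate 1 and 650 in replicate 2. Their scores there ran from 31.0 to 918 in replicate 1, with a median of 64.6, and from 27.1 to 718 in replicate 2, with a median of 53.0. Of the 630 sites ranked in both, 480 scored higher in replicate 1. Over all 630, the log2 ratio of replicate 1 to replicate 2 had a median of 0.25 (SD over sites 0.39). The same values over all peaks were not computed, so the excess is not shown to be particular to the sites. The conservative list was itself made by agreement between the replicates, so the closeness of the pairs is built in.

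**Figure D3:**
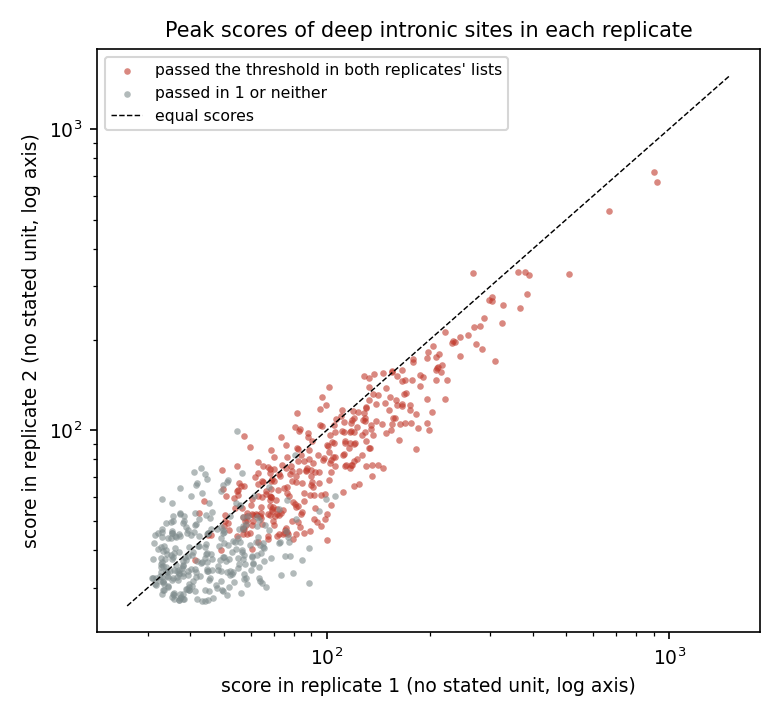
Score of each deep intronic site in replicate 1 (x axis) and replicate 2 (y axis), both on log axes with no stated unit, for the 630 sites ranked in both. Most points lie below the dashed line of equal scores, and points from both thresholded lists fill the upper part.

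The site of highest score was in the first intron of CG32486, 5721 bp from the nearest start, which belongs to CG16753, on 3L (3060633 to 3060961). It scored 1608 in the series list, with 900.003 in replicate 1 and 718 in replicate 2. Next came a site on 2R (10219882 to 10220277) within Hr3, a nuclear receptor of the ecdysone response, where CG12912 and CG46321 overlap it. It scored 1576, with 918 and 665 in replicates 1 and 2. The third was in simj, a gene of the Mi-2 chromatin remodelling complex (score 1213, with 666 and 535 in replicates 1 and 2). The fourth scored 835 in Gug, the Atrophin corepressor gene, with 510 and 331 in replicates 1 and 2. JIL-1, a histone H3 kinase gene, had 720, and rdx, which encodes an adaptor for degradation of Cubitus interruptus, had 700.3. Then came Mi-2, overlapped by Su(Tpl) (665), and Lrch (593). The other places among the first 10 were held by 2 sites in sbb, the transcriptional corepressor gene scribbler, with 702 and 617. The 10 sites were all in both replicates' thresholded lists.

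Just inside the distance rule, the nearest members were in CG14669 (5004 bp from a start, score 83.9), shep (5009 bp, score 172) and MSAmiP (5022 bp, score 64.3). The nearest peaks outside were in Liprin-gamma (4989 bp, score 113) and cv-c (4989 bp, score 207). Members lay a median of 9318 bp from a start, 316 of them (45.7%) over 10000 bp and 74 over 20 kb. The farthest was in bru3, an RNA-binding protein gene, at 57357 bp (score 69.7).

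Introns with sites were long, which the distance rule favours, and their length was not compared with that of other introns holding eligible sequence. The gap between merged exons of the host round a site had a median length of 17979 bp, with a range from 245 to 111163 bp. It was the first gap of the host for 214 sites (31.0%), the second for 160 and a later one for 317. The sites lay at a median of 47.0% of the gene's length from its first start. For 396 sites (57.3%) the nearest start belonged to the host itself, and for the rest it belonged to another gene. The same shares over all eligible intron sequence were not computed. These positions therefore describe the sites and do not show a preference. Density by arm was 40.6 sites per Mb of eligible intron on 2L, 37.0 on 3L, 31.8 on 2R and 29.5 on 3R. Over the 4 arms there were 33.8 sites per Mb of the 20.5 Mb of eligible intron, against 53.2 other peaks per Mb elsewhere. The order of the arms rests on 5 genes with the most eligible intron, each without a site, namely Myo81F (1.78 Mb) and Pzl on 3R, lovit on 3L, and DIP-lambda and CG17684 on 2R. Without these genes, an alternative added after the data were seen, the density was 40.6 on 2L, 40.4 on 3L, 37.7 on 2R and 43.1 on 3R, and 40.7 over the 4 arms.

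Another site lay within 2000 bp of 214 sites and within 10000 bp of 407. Chained within 10000 bp they formed 434 runs, of which 284 were single sites and 52 had 3 or more, up to 12. In 72 cases another site's summit lay within 370 bp, the median peak width. All 27 sites with a score below 30 had another peak's summit that close. Counted once within 370 bp, the 691 summits came to 655. The same counts were not made for the other peaks, so they describe the sites and show no trait particular to them.

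The 691 sites lay in 350 coding genes, out of 1356 with eligible intron sequence (25.8%). In 671 cases a site had 1 host, and 20 sites lay in overlapping genes and counted for each. Of the hosts, 186 held 1 site, 164 held more, and 46 held at least 4. These 46 covered 247 sites (35.7%). Host genes had a median of 17.7 kb of eligible intron, against 3.31 kb in genes without a site. Across the 1356 genes, eligible length and number of sites had a Spearman's rho of 0.47, given as a description, since genes share libraries and a longer intron can hold more peaks. With the genes in 4 equal groups from least to most eligible intron, 2.36%, 15.6%, 30.1% and 55.2% held a site, at 5.34, 6.41, 4.23 and 2.98 sites per 100 kb. The last density includes the 5 genes with the most eligible intron, which hold no site and lower it.

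Most sites were in sbb and Snoo, with 12 each (11 each with close summits counted once). In sbb, all lay in the first intron, 49364 bp long, with scores from 18.9 to 702 and a median of 186. Its ranked sites scored 42.8 to 366 in replicate 1 and 36.2 to 336 in replicate 2, and 9 of the 12 were in both thresholded lists. Snoo encodes a Ski and Sno family protein that limits Dpp signalling. All of its sites lay in an intron of 78434 bp, with scores from 46.8 to 433. In replicate 1 they ran from 33.0 to 222 and in replicate 2 from 27.1 to 211, and 5 of 12 were in both lists. The density was 33.7 sites per 100 kb of eligible intron in sbb and 16.2 in Snoo.

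Among genes of transcription factors, ftz-f1, an orphan nuclear receptor gene of the ecdysone response, had the highest density of the 5 hosts with 10 or more sites. Its 10 sites lay in the second intron (31792 bp), at 57.0 per 100 kb of eligible sequence, with scores from 56.5 to 278. They scored 38.1 to 160 in replicate 1 and 34.3 to 122 in replicate 2. hth, which encodes the homeodomain partner that brings Extradenticle into the nucleus, also had 10 sites, spread over 107766 bp and several introns at 9.93 per 100 kb. Their scores ran from 42.6 to 369, with 36.9 to 203 in replicate 1 and 33.7 to 182 in replicate 2. In luna, a zinc finger gene of the Krüppel-like type, 7 sites scored 85.9 to 155. eIF5B, a translation initiation factor gene, had 10 sites in a gene of 32320 bp (39.8 per 100 kb), from 6.76 to 318, or 8 with close summits counted once. Counted in that way, ftz-f1 had 9. Both thresholded lists held 5 sites of ftz-f1, 6 of hth, 4 of luna and 4 of eIF5B.

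The other hosts among the first 15 had 6 to 9 sites. rdx had 9 sites, all in 1 intron of 40282 bp, with scores from 69.1 to 700.3 and 5 in both lists. They ran from 31.1 to 389 in replicate 1 and from 27.4 to 327 in replicate 2. fz, the Frizzled receptor of planar polarity, had 7 sites (65.1 to 469). ed, an adhesion protein gene that restrains the EGF receptor pathway, had 6 (72.4 to 548). msn, a kinase gene, had 6 (6.22 to 307), Pvf3, a ligand gene of the PDGF and VEGF type, had 6 (65.8 to 270.3), and kibra, an upstream gene of the Hippo pathway, had 6 (65.3 to 254). Tet, the gene of a dioxygenase acting on modified nucleic acid bases, had 8 (6.70 to 320). CG42238 and CG31145 completed the first 15 with 6 each. In both thresholded lists were 5 sites of fz, 3 of ed, 2 of msn, 4 of Pvf3 and 1 of kibra. Tet had 3 there, CG42238 had 2 and CG31145 had 3. Close summits counted once left 7 sites in Tet, 5 in msn and 5 in CG31145.

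**Figure D4:**
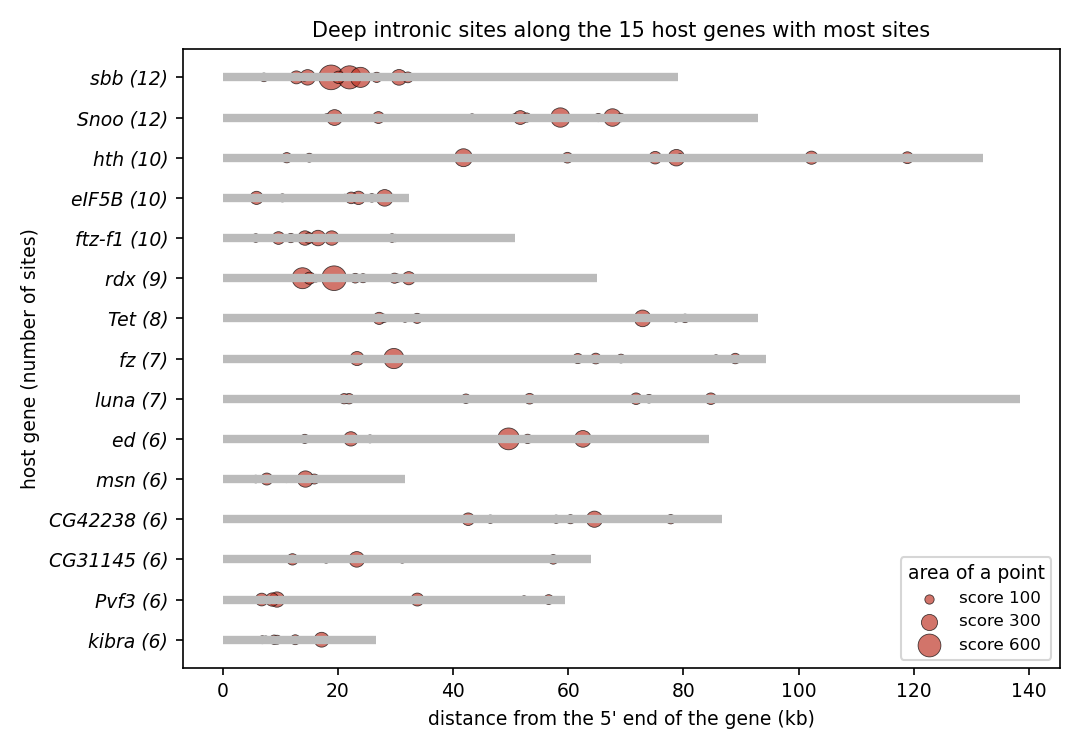
Position of each deep intronic site along the 15 host genes with most sites, as distance (kb) from the 5′ end of the gene, with grey bars for gene length and the area of a point for the score. Sites of sbb, rdx and ftz-f1 lie close together in 1 intron, while those of hth run over most of the gene.

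Lists of genes were compared with all 1356 genes that have eligible intron sequence, of which 25.8% held a site. The share with a site goes up with eligible length, and the 7 lists below all have a median eligible length above the 5.91 kb of all genes, so the shares are not comparable at equal length. The density over all genes, 3.39 sites per 100 kb, includes the 5 genes with the most eligible intron, which hold no site and lower it. Without those 5 genes the 4 arms had 40.7 sites per Mb of eligible intron, against 33.8 with them. Signalling genes (median 11.5 kb) had 27 hosts of 42 (64.3%) and 65 sites, at 9.97 sites per 100 kb of eligible intron, against 3.39 over all genes. Besides fz, msn and Pvf3 the leading host was mam, the Notch coactivator gene mastermind (5 sites, scores 105 to 144). Snoo, rdx, kibra and ed, described above with signalling pathways, were not in this list. Genes of ecdysone response and nuclear receptors (median 15.4 kb) had 11 hosts of 18 (61.1%) at 7.67 sites per 100 kb, led by ftz-f1, Eip75B (4 sites, up to 209), the coactivator gene tai (3 sites, up to 266) and Eip74EF (2 sites, up to 265). Developmental transcription factor genes (median 9.58 kb) had 33 hosts of 83 (39.8%) at 5.76 per 100 kb, led by hth, luna, jing (6 sites, up to 145) and the Hox gene Antp (4 sites, up to 295, in sequence shared with CG46458). Close summits counted once left 4 sites in jing and 3 in Antp. In both thresholded lists were 1 site of jing and 3 of Antp.

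RNA-binding protein genes had 14 hosts of 21 (66.7%), with a median of 38.0 kb of eligible sequence and a density of 2.55 per 100 kb. pum, the translational repressor gene Pumilio, and Rbp6 had 4 sites each (up to 124 and 113), and cpo and msi had 2 each (up to 239 and 180.3). Close summits counted once left 3 sites in pum. Genes of axon guidance and cell adhesion (median 18.8 kb) had 27 hosts of 69 (39.1%) at 2.75 per 100 kb, led by ed, the semaphorin gene Sema1a (4 sites, up to 122), Fas3 (3, up to 371) and the receptor kinase gene drl (3, up to 149.96). Muscle and cytoskeleton genes (median 6.99 kb) had 8 hosts of 33 (24.2%) at 2.06 per 100 kb, with rols (2 sites, up to 116), mbl (2, up to 74.2, or 1 with close summits counted once), how (1, 372) and Zasp52 (1, 219). Ion channel and receptor genes (median 8.81 kb) had 8 hosts of 41 (19.5%) at 1.96 per 100 kb, with nAChRalpha6 (3 sites, up to 84.1), 5-HT2B (2, up to 122), Elk (1, 129) and mAChR-B (1, 111). These are counts with no test, and some genes are in more than 1 list.

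**Figure D5:**
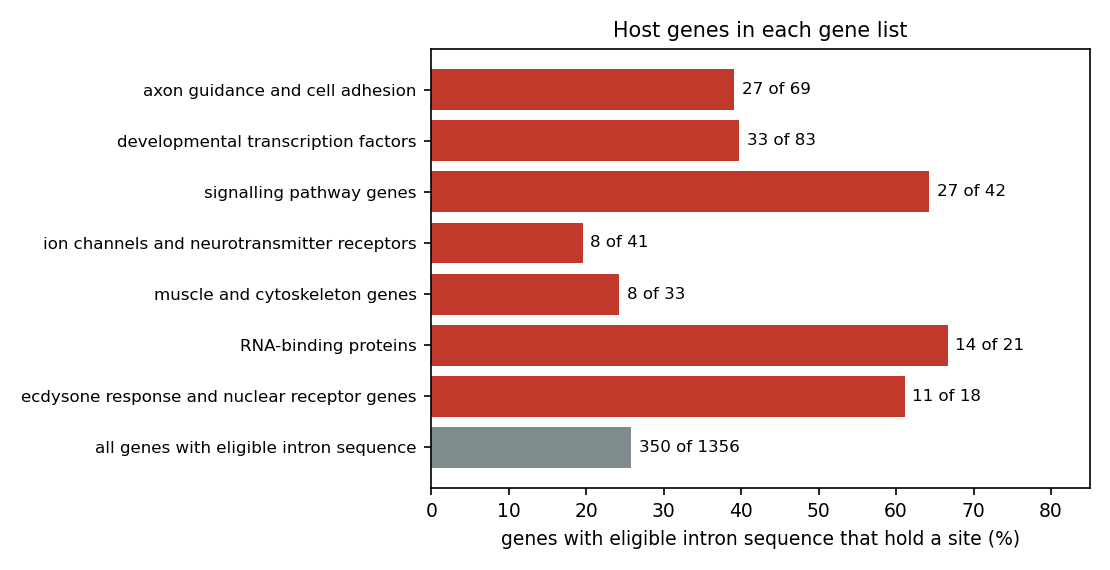
Share (%) of genes with eligible intron sequence that hold at least 1 deep intronic site, for 7 gene lists in red and all such genes in grey, with the counts beside the bars. The lists run from 19.5% for ion channels and receptors to 66.7% for RNA-binding proteins, and all genes stand at 25.8%.

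A conservative summit within 1000 bp of one of the gene's own starts was found for 146 of 350 hosts (41.7%), against a background of 32.3% of all 1356 genes with eligible intron and 29.0% of those without a site. Among the 339 genes with the most eligible intron, 81 of 111 genes with a bound start held a site (73.0%), and 106 of 228 genes without a bound start did (46.5%). Any of a gene's own starts counted, and these shares do not hold eligible length or number of starts fully equal. Of the first 15 hosts, sbb, Snoo, eIF5B, ftz-f1, rdx, Tet, ed, msn, CG42238 and CG31145 had a bound start, while hth, fz, luna, Pvf3 and kibra had none within that distance. Ptx1 itself had 2452 bp of eligible intron and no site. Its 3 intronic peaks lay 2459 to 3204 bp from a start, with scores from 47.3 to 89.3.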

How the data were processed

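Chromatin immunoprecipitation was measured in 2 biological replicates, 1 group in all. Peak lists in dm6 coordinates were deposited. Each deposited peak has a score with no stated unit, a scaled IDR score capped at 1000 and a −log10 q value. Replicates have lists of their own, and the series lists combine both. The aligner and the caller of peaks are steps not given in the sources used here. The summit was column 2 plus column 10, made 1-based. Genes, exons and starts of all transcripts came from Ensembl release 115 and sequence from RefSeq's copy of the same assembly.

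Replicate scores are those of the nearest summit within 100 bp in each replicate's own ranked list. Comparisons between classes of peaks used Fisher's exact test and those with flanks the exact McNemar test, two-sided, with Benjamini-Hochberg adjustment and a threshold of 0.05. Intervals are at 95% and cover counting error only, since depth is unknown. Each motif was searched on both strands, without removing overlaps between motifs. The 18 motifs were TAATCC (bicoid type), TAAGCC (weaker core of that type), CCTAAT (the first core written backwards), TATCGATA (replication-related element), TAATTA (Antennapedia type), GGTCACAC (core promoter), GATAAG (factors of the GATA class), GAGAG (the Trl protein), CACACACA (repeat), AAAAAAAA (tract), CACTTGA (Tinman type), CAGCTG (E-box), CAGGTA (Zelda type), TGANTCA (the AP-1 element), TTCNNNGAA (the STAT element), TGACGT (the cyclic AMP element), AACCGGTT (Grainy head type) and TTTATG (caudal type).

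Named hosts are the 15 with most sites (ties by score), those of the 10 highest sites, up to 4 per list, and Ptx1. Members, lists and motifs were chosen with earlier results of these data known. Genes named at the distance limit, beside a printed sequence or as extremes were chosen after their values were seen. Functions were tested on simulated data, where TAATCC planted in 10% of 700 windows was the 1 motif called. It was then in 14.3% of these windows and 4.72% of the windows they were compared with. The simulated windows were independent, with all bases equally frequent, unlike the summits. The simulation does not show that a small difference would be found. Tables were handled with pandas 2.3.3 and numpy 2.4.6 in Python 3.11.15, tests run with scipy 1.17.1 and plots drawn with matplotlib 3.10.9. The sequence of 1 site is not reported here.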

Additional observations from a re-analysis of the deposited data

Results flagged for a closer look

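On these arms 7 peaks met the position rule and scored at or above the IDR minimum of 830 in the ranked list of the replicate pair, yet the conservative list lacks them, so no comparison above used them. In tara, a gene of the trithorax group, there were 5 of them, with scores of 1247, 309.7, 211, 183 and 116. The others were in jumu (322) and Sema1a (67.2). Of the 7, 6 lay on 3R. In all, 120 peaks of these arms, at any position, were left out of the conservative list in this way. None had a summit within 100 bp in either replicate's thresholded list.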

How the results depend on the processing

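The numbers of sites (691), host genes (350) and hosts on the lists (123) moved by definition with stricter or looser rules. In the upper part by score they were 273, 190 and 60, and beyond 10000 bp from a start 316, 165 and 73, while beyond 2000 bp there were 1232 sites and 578 hosts. With summits within 370 bp counted once, an alternative chosen after the data were seen, 655 sites were left.

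The lower score and support of the sites against all other peaks kept direction and side of the threshold in every alternative run. Against intronic peaks nearer to a start the odds ratio of support (0.926) was 1.00 without replicate 1 in the support, 0.793 without replicate 2 (Fisher's exact test, exact adjusted p = 0.0411) and 0.648 with 1 peak per run (exact adjusted p = 0.0193). For score it ran from 0.738 to 0.848 without one replicate, and was 0.825 in the other thresholded list. Against intergenic peaks the score ratio was 0.846 beyond 10000 bp. For GC content, never called, the ratio turned below 1 against other peaks with 1 peak per run (0.992) and wider windows, reaching 100 bp to either side of the summit (0.980). Against nearer intronic peaks it was 0.907 with 1 peak per run, 0.927 and 0.946 beyond 2000 and 10000 bp, and 0.989 and 0.934 with windows of 51 bp and the wider ones. Against intergenic peaks it was 0.930 in the other list, 0.905 to 1.02 without one replicate, and 0.918 and 0.833 beyond 2000 and 10000 bp.

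The count of motifs that differed from other peaks (1) was 0 with 1 peak per run, with windows of 51 bp, or against either smaller class of peaks. It was 0 to 1 without one replicate, 3 beyond 2000 bp and 4 with the wider windows. Beyond 10000 bp it was 1, but GATAAG in place of TATCGATA. TATCGATA had an odds ratio of 1.38 against nearer intronic peaks. Against flanks (0) the count was 1 to 2 without one replicate, 2 with the wider windows and 1 with the higher-coordinate flank. TAATCC had odds ratios of 1.00 with windows of 51 bp, 1.13 against nearer intronic peaks and 0.733 against flanks at 1000 bp. For all of these the cause was not tested. No paired analysis was possible because both replicates belong to 1 group. Read depth is unknown, so what depth limits cannot be stated, and a peak that is missing is not shown to be unbound.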
